A study of Mus musculus with 6 samples.

Results

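The genes described here are 9 that control the release of fatty acids from stored fat, chosen by name. They are the lipases *Pnpla2*, *Lipe* and *Mgll*, the lipase regulators *Abhd5* and *G0s2*, the phosphodiesterase *Pde3b*, and the adrenergic receptor genes *Adrb1*, *Adrb3* and *Adra2a*. They are 9 of 37384 gene symbols counted, all 9 were present, and all 9 passed the filter on low counts. RNA was sequenced from floated adipocytes of inguinal subcutaneous white adipose tissue (scWAT) of male mice at postnatal day 7 (P7), with 3 libraries for each of the genotypes L1L2-FF and L1L2-AKO, every one made from the pooled adipocytes of 4 mice. Both genotypes carry floxed alleles of *Lats1* and *Lats2*, the kinases at the core of the Hippo pathway, on a partly mixed strain background. L1L2-AKO mice also carry Cre recombinase driven by the *Adipoq* promoter, so deletion is limited to cells in which that promoter has been active, and L1L2-FF mice have no Cre. The study calls the libraries biological replicates, and no untreated mouse without floxed alleles or mouse with Cre alone was among the groups used here. The comparison asks how adipocyte transcripts differ when *Lats1* and *Lats2* are deleted early in life.

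Lipolysis is the stepwise removal of fatty acids from triacylglycerol in the lipid droplet. Catecholamines from sympathetic nerves act on beta-adrenergic receptors, which raise cAMP through the G protein Gs, and cAMP activates protein kinase A (PKA), which phosphorylates hormone-sensitive lipase and the droplet coat protein perilipin. The alpha-2 adrenergic receptor acts in the opposite direction through Gi, and insulin lowers cAMP by activating the phosphodiesterase PDE3B. In mouse white and brown fat the beta-3 receptor, encoded by *Adrb3*, is the beta receptor best known for this response.

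Library depth was even, with total counts from 30548473 to 32107917. *Lats1* read 76.0, 94.2 and 78.4 CPM (counts relative to the library total, scaled by TMM) in the L1L2-FF libraries and 38.9, 41.2 and 40.5 CPM in those labelled L1L2-AKO, a fall of −1.04 in log2 units (standard error 0.118, edgeR adjusted p = 0.00131). *Lats2* went against the label: 74.9, 85.7 and 68.5 CPM in L1L2-FF and 96.1, 126 and 135 CPM in L1L2-AKO, a log2 difference of 0.64 (standard error 0.156, edgeR adjusted p = 0.0278). By quantitative PCR, the study reports lower *Lats1* and *Lats2* mRNA in scWAT adipocytes of P7 L1L2-AKO males than of L1L2-FF males. A count per gene also takes in exons that are not floxed, and 41.2% of the 50-base stretches of *Lats2* occur in a readthrough gene too. The *Lats2* call was lost in 4 of 6 fits that dropped 1 library (replicates 1 and 3 of L1L2-FF, replicates 2 and 3 of L1L2-AKO), with edgeR adjusted p up to 0.104. All directions below are therefore those of the libraries labelled L1L2-AKO against L1L2-FF.

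Among the 9 genes, *Adrb3*, *Pde3b* and *Adra2a* fell, none rose, and the other 6 did not pass the test. Their median log2 difference was −0.58, beside −0.02 over all 15674 genes tested. The background for these counts is that 7.18% of tested genes fell and 9.28% rose at an edgeR adjusted p under 0.05 (quasi-likelihood test, two-sided, Benjamini-Hochberg adjustment over all genes tested). At an unadjusted p under 0.05 the counts were 5 lower and 1 higher, with DESeq2 they were 5 lower and 1 higher, and with limma-voom 2 lower and 0 higher. In 5 of the 9 genes the 3 libraries of one genotype lay wholly below those of the other, in each case with L1L2-AKO lower, and 36.4% of all tested genes showed no overlap in one direction or the other. In bulk RNA of this kind, fewer cells that carry a transcript and less of the transcript per cell cannot be told apart.

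**Figure D1:**
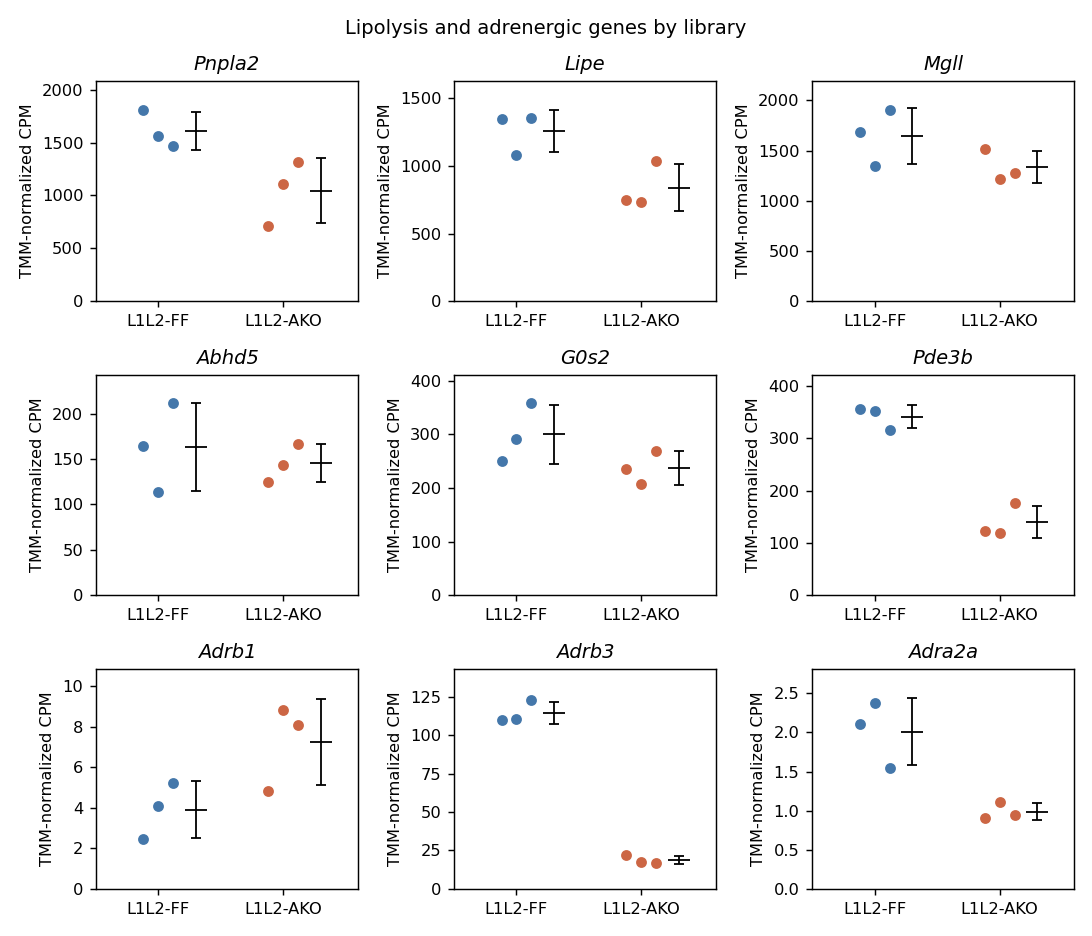
TMM-normalized CPM (vertical axes, each from 0) of the 9 genes in the 3 L1L2-FF libraries (blue) and the 3 libraries labelled L1L2-AKO (orange), 1 point per library, with the mean and SD beside them. *Adrb3* and *Pde3b* are separated by a wide gap, *Pnpla2*, *Lipe* and *Adra2a* by a narrow one, and the other 4 genes overlap.

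**Figure D2:**
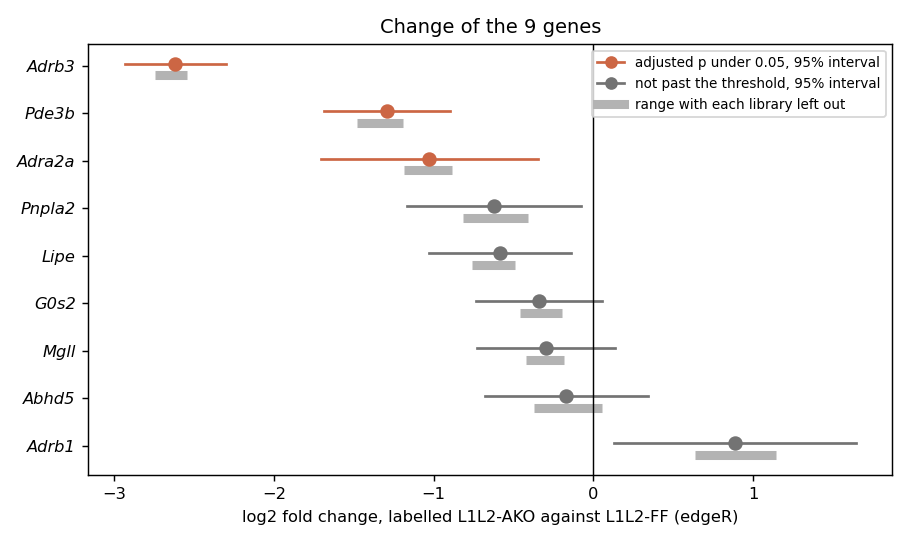
Log2 fold change of the 9 genes (horizontal axis, libraries labelled L1L2-AKO against L1L2-FF, edgeR) with its 95% confidence interval, in orange where the adjusted p was under 0.05. Grey bars show the range when each library was left out in turn, from −2.74 to −2.54 for *Adrb3* and from −1.48 to −1.19 for *Pde3b*.

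*Adrb3* showed the largest difference of the 9. In GENCODE M21 (mm10), from which all positions here are taken, it lies at chr8:27225776-27250616, minus strand (ENSMUSG00000031489.15). It read 110.0, 110.4 and 122.5 CPM in the L1L2-FF libraries and 21.8, 17.3 and 16.9 CPM in L1L2-AKO. The 3 L1L2-FF values lie close together, and the lowest of them is far above the highest L1L2-AKO value. *Adrb3* fell by 2.62 on the log2 scale, a 6.13-fold lower level (standard error 0.137, 95% confidence interval −2.93 to −2.30, edgeR adjusted p = 0.000128), and it was called in all 15 alternative fits. Of the 50-base stretches of *Adrb3*, 19.2% also occur in an opposite-strand gene, *Gm45470*, which is not among the gene symbols counted. The strand setting of the counting is not given in the sources used here.

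*Adrb1*, the beta-1 receptor gene, is annotated at chr19:56722199-56733113, plus strand (ENSMUSG00000035283.5) and was counted at a much lower level. It read 2.46, 4.08 and 5.22 CPM in L1L2-FF and 4.85, 8.81 and 8.10 CPM in L1L2-AKO, from counts of 77, 132 and 162 against 161, 278 and 232. The lowest L1L2-AKO library lay inside the L1L2-FF range, so the genotypes overlapped. The log2 difference was 0.89 (standard error 0.328, 95% confidence interval 0.13 to 1.64, edgeR adjusted p = 0.107), which did not pass the test and passed it in 2 of 15 alternative fits. These were DESeq2 (adjusted p = 0.0479) and replicate number as a block (edgeR adjusted p = 0.0281).

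*Adra2a* encodes the alpha-2A receptor, which couples to Gi and restrains cAMP in fat cells. It is annotated at chr19:54044151-54048982, plus strand (ENSMUSG00000033717.6). It was near the lower end of what could be measured, with counts of 66, 77 and 48 in L1L2-FF and 30, 35 and 27 in L1L2-AKO, or 2.11, 2.38 and 1.55 CPM against 0.904, 1.11 and 0.942 CPM. All 3 L1L2-AKO libraries were below all 3 L1L2-FF libraries. The fall of *Adra2a* was −1.03 in log2 units (standard error 0.295, edgeR adjusted p = 0.0497), just inside the threshold, and it was called in 6 of 15 alternative fits. When single libraries were left out the edgeR adjusted p ran from 0.0419 to 0.145, past 0.05 in each case except without L1L2-FF replicate 3, and it was 0.0624 with library size alone and 0.0671 with the replicate block.

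On a scale corrected for gene length (TPM, the level per base of exon in GENCODE M21), *Adrb3* was at 93.4, 101.6 and 101.6 TPM in L1L2-FF and 21.5, 16.0 and 14.2 TPM in L1L2-AKO. *Adrb1* was at 2.08, 3.74 and 4.32 TPM against 4.78, 8.15 and 6.81 TPM. *Adrb3* was above *Adrb1* in every library of both genotypes, with a much narrower gap in L1L2-AKO.

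Among the genes of the alpha-1 adrenergic receptors, which couple to Gq and calcium, *Adra1d* and *Adra1b* rose and *Adra1a* did not pass the test. *Adra1d* read 6.25, 7.11 and 7.15 CPM in L1L2-FF and 47.6, 44.2 and 70.1 CPM in L1L2-AKO, a log2 difference of 2.98 (standard error 0.199, edgeR adjusted p = 0.000259). *Adra1b* rose from 0.557 ± 0.178 CPM (SD, n = 3) to 6.91 ± 2.28 CPM (SD, n = 3), a log2 difference of 3.62 (edgeR adjusted p = 0.000904). *Adra1a* was at 11.7 ± 3.68 CPM and 8.51 ± 0.566 CPM (SD, n = 3 each), with a log2 difference of −0.46 (edgeR adjusted p = 0.24). The 3 genes together held 14.9 ± 0.811 TPM (SD, n = 3) in L1L2-FF and 96.4 ± 17.0 TPM (SD, n = 3) in L1L2-AKO, 6.46-fold higher, of which *Adra1d* was 70.6% and 90.3%. In L1L2-AKO the alpha-1 sum was above *Adrb3* in every library, and in L1L2-FF below it in every library. *Adra2b* and *Adra2c* were at or below 21 counts in every library and were not tested.

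**Figure D3:**
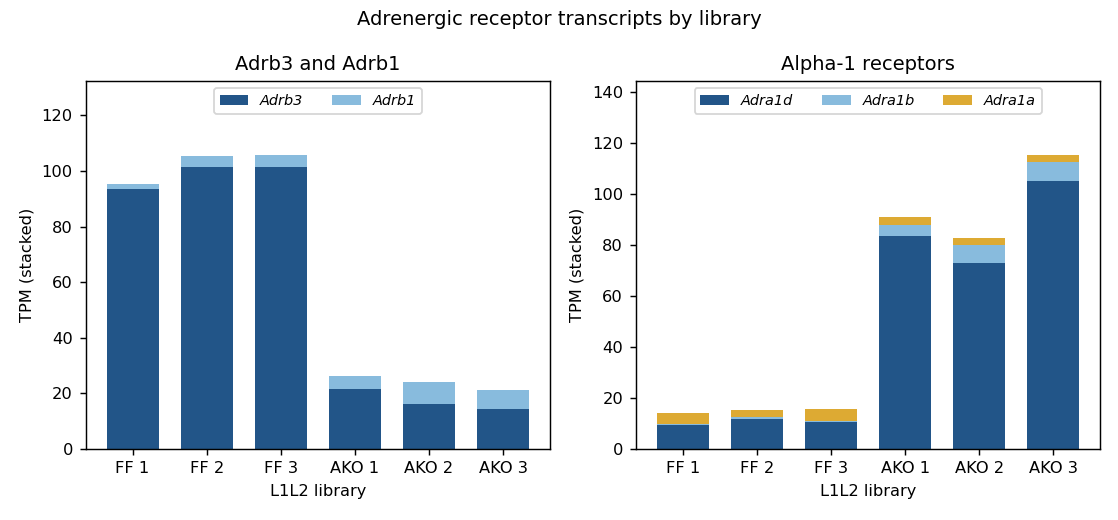
TPM (vertical axes, stacked, from 0) of *Adrb3* and *Adrb1* (left) and of the alpha-1 receptor genes *Adra1d*, *Adra1b* and *Adra1a* (right) in each of the 6 libraries. *Adrb3* is between 93.4 and 101.6 TPM in L1L2-FF and between 14.2 and 21.5 TPM in L1L2-AKO, and the alpha-1 total is between 14.0 and 15.7 TPM against 82.8 to 115 TPM.

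*Pde3b* encodes the membrane-bound phosphodiesterase through which insulin lowers cAMP and restrains lipolysis. It is annotated at chr7:114415281-114539251, plus strand (ENSMUSG00000030671.9). It read 356.6, 352.2 and 315.8 CPM in L1L2-FF and 123.7, 119.6 and 175.5 CPM in L1L2-AKO. The highest L1L2-AKO library, replicate 3, was still well under the lowest L1L2-FF library. *Pde3b* fell by 1.29 on the log2 scale, a 2.45-fold lower level (standard error 0.172, 95% confidence interval −1.69 to −0.90, edgeR adjusted p = 0.00243), and it was called in all 15 alternative fits. *Pde3b*, a brake on cAMP, and *Adrb3*, a receptor that raises it, thus both fell, and the *Pde3b* to *Adrb3* ratio within a library was 2.49-fold higher in L1L2-AKO.

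*Pnpla2* encodes adipose triglyceride lipase (ATGL), which removes the first fatty acid from triacylglycerol. It is annotated at chr7:141455198-141460743, plus strand (ENSMUSG00000025509.15). It read 1804, 1558 and 1464 CPM in L1L2-FF and 714.3, 1108 and 1315 CPM in L1L2-AKO. The genotypes did not overlap, but the L1L2-AKO libraries were spread over a wide range, and replicate 3 came close to L1L2-FF. The log2 difference was −0.62 (standard error 0.237, 95% confidence interval −1.17 to −0.08, edgeR adjusted p = 0.117) and did not pass the test, except with DESeq2 (adjusted p = 0.0433).

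*Lipe* encodes hormone-sensitive lipase, which hydrolyses diacylglycerol and is a direct target of PKA. It is annotated at chr7:25379527-25398710, minus strand (ENSMUSG00000003123.15). It read 1345, 1080 and 1356 CPM in L1L2-FF and 751.8, 731.4 and 1041 CPM in L1L2-AKO. The genotypes were again apart by a small gap, between L1L2-FF replicate 2 and L1L2-AKO replicate 3. The log2 difference of −0.58 (standard error 0.193, 95% confidence interval −1.03 to −0.14, edgeR adjusted p = 0.0775) did not pass the test. It passed in 3 of 15 alternative fits, with adjusted p-values of 0.0328 with library size alone (edgeR), 0.0211 with DESeq2 and 0.0478 without L1L2-FF replicate 2 (edgeR). Of the 50-base stretches of *Lipe*, 10.8% also occur in the opposite-strand gene *4732471J01Rik*, which was counted 10 to 33 times per library.

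*Mgll* encodes monoacylglycerol lipase, which releases the last fatty acid and glycerol, and is annotated at chr6:88724412-88828360, plus strand (ENSMUSG00000033174.17). It read 1681, 1350 and 1901 CPM in L1L2-FF and 1520, 1216 and 1281 CPM in L1L2-AKO, with overlap. Its log2 difference was −0.30 (standard error 0.188, 95% confidence interval −0.73 to 0.14, edgeR adjusted p = 0.337), and it passed in 0 of 15 alternative fits, DESeq2 and limma-voom among them. The opposite-strand gene *Gm26588*, which overlaps it, was counted between 43 and 165 times per library, with a log2 difference of −1.10 (edgeR adjusted p = 0.0474). That is a small count beside *Mgll*.

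Neither regulator of ATGL passed the test. *Abhd5* encodes CGI-58, the coactivator of ATGL, and is annotated at chr9:122351608-122381524, plus strand (ENSMUSG00000032540.16). It read 164.1, 114.0 and 211.2 CPM in L1L2-FF and 125.1, 143.2 and 166.8 CPM in L1L2-AKO, so the 3 L1L2-AKO libraries fell inside the range of L1L2-FF. The log2 difference was −0.17 (standard error 0.222, 95% confidence interval −0.68 to 0.34, edgeR adjusted p = 0.666), and it was 0.06 without L1L2-FF replicate 3. Of the 50-base stretches of *Abhd5*, 14.8% also occur in the opposite-strand gene *A730085K08Rik*, which was counted 11 to 34 times per library. *G0s2* encodes an inhibitor of ATGL and is annotated at chr1:193272161-193273217, minus strand (ENSMUSG00000009633.3). It read 250, 290.8 and 359.4 CPM in L1L2-FF and 236.1, 206.6 and 268.5 CPM in L1L2-AKO, a log2 difference of −0.34 (standard error 0.170, 95% confidence interval −0.73 to 0.05, edgeR adjusted p = 0.223) with overlap. Both act on ATGL as proteins, which were not measured.

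On the TPM scale the order of the 9 genes in L1L2-FF was *Pnpla2* (1557 ± 181 TPM, SD, n = 3 here and for each value that follows), *G0s2* (1005 ± 169 TPM), *Mgll* (941 ± 112 TPM), *Lipe* (623 ± 46.7 TPM), *Pde3b* (110 ± 11.6 TPM), *Adrb3* (98.9 ± 4.76 TPM), *Abhd5* (79.2 ± 19.95 TPM), *Adrb1* (3.38 ± 1.16 TPM) and *Adra2a* (1.23 ± 0.317 TPM). The ranges of *G0s2* and *Mgll* overlapped, as did those of *Pde3b* and *Adrb3* and of *Adrb3* and *Abhd5*, so these neighbours did not differ beyond their spread. In L1L2-AKO *Pnpla2* (1058 ± 238 TPM), *G0s2* (841 ± 86.8 TPM) and *Mgll* (821 ± 154 TPM) overlapped as neighbours. *Lipe* followed at 439 ± 58.5 TPM, then *Abhd5* at 75.0 ± 4.87 TPM, *Pde3b* at 47.0 ± 7.06 TPM, *Adrb3* at 17.2 ± 3.79 TPM, *Adrb1* at 6.58 ± 1.69 TPM and *Adra2a* at 0.632 ± 0.0818 TPM. With the length of the longest transcript in place of all exon bases, 5 of the 9 ranks in L1L2-FF and 7 of the 9 in L1L2-AKO were the same.

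Ratios between genes within 1 library do not depend on how libraries are scaled, and 9 were compared by exact permutation tests, two-sided, in which 0.1 is the smallest p possible. The *Adrb1* to *Adrb3* ratio, as log2 of the TPM ratio, was −5.49, −4.76 and −4.56 in L1L2-FF and −2.17, −0.97 and −1.06 in L1L2-AKO, an 11.6-fold difference. *Adra2a* to *Adrb3*, inhibitory against stimulatory receptor, was −6.22, −6.05 and −6.83 against −5.11, −4.48 and −4.68, 3.06-fold higher in L1L2-AKO. *Adra2a* to *Adrb1* was 3.79-fold lower. These 3 ratios and *Pde3b* to *Adrb3* did not overlap between the genotypes, with p = 0.1 by the exact permutation test and 0.225 after Benjamini-Hochberg adjustment over the 9 ratios.

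Within the lipase machinery itself the ratios overlapped between the genotypes. The *Lipe* to *Pnpla2* ratio differed by 0.07 on the log2 scale (exact permutation p = 0.7) and *Mgll* to *Lipe* by 0.31 (exact permutation p = 0.4). *G0s2* to *Pnpla2*, inhibitor against enzyme, differed by 0.33 (exact permutation p = 0.5) and *Abhd5* to *Pnpla2*, coactivator against enzyme, by 0.53 (exact permutation p = 0.3). *Plin1*, the gene of perilipin 1, which holds CGI-58 at the droplet surface until PKA acts, stood to *Lipe* at a ratio that differed by −0.07 (exact permutation p = 0.7).

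**Figure D4:**
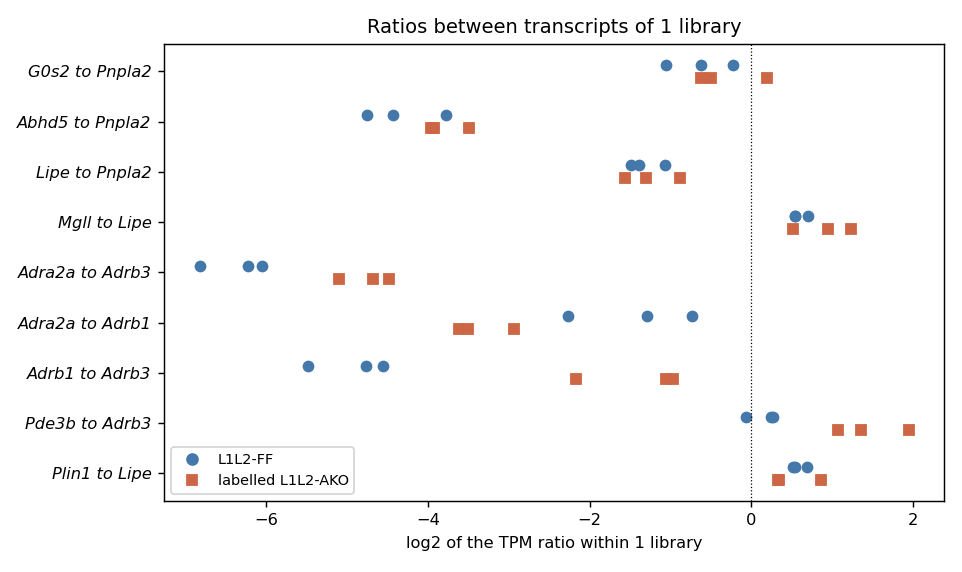
Log2 of the TPM ratio between pairs of transcripts within 1 library (horizontal axis) for 3 L1L2-FF libraries (blue circles) and 3 libraries labelled L1L2-AKO (orange squares). The ratios with *Adrb3*, and *Adra2a* to *Adrb1*, do not overlap between the genotypes, and the ratios among the lipases, their regulators and *Plin1* do.

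For 7 of the 9 genes, all but *Adrb3* and *Pde3b*, the 250 bases before each start in the RefSeq table used here (GRCm38.p6; 9 windows) were searched on both strands for the cAMP response element TGACGTCA, to which CREB binds, for its shorter core TGACG, and for GGAATG, the core bound by the TEAD factors that act with YAP and TAZ. The full element was found for 0 of the 7 genes, beside 1.77% of 27025 genes searched in the same way. The core TGACG was found for 4 of the 7, beside 19.8%, and GGAATG for 1 of the 7, beside 14.4%. The 4 stretches with TGACG are shown because they hold the one cAMP-related motif of this search that was found, 5′ to 3′ on the strand of the gene, with the motif in capitals. In *Abhd5* the capitals also cover the GGAATG that overlaps it, and in *G0s2* the motif is on the other strand and reads CGTCA.
Abhd5, chr9:122351476-122351505, plus strand: acacgggcGGAATGACGcattaatggtcat
Adra2a, chr19:54045178-54045207, plus strand: ccacgtgggggcTGACGccggctgctcggc
Adrb1, chr19:56722015-56722044, plus strand: gctgcgggagccTGACGcgcggccccgggg
G0s2, chr1:193273409-193273438, minus strand: acacCGTCAcctggtggtctcctcttcagc
GENCODE M21 places no exon at the *Abhd5* and *Adrb1* stretches. The *Adra2a* stretch lies in an untranslated part of an *Adra2a* exon, and the *G0s2* stretch overlaps an exon of the neighbouring *Lamb3*. Of these 4 genes *Adra2a* fell and the other 3 did not pass the test, and a match of letters is not a measured site.

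The other genes of the pathway were followed from the receptor inward. Of 8 other inhibitory, Gi-coupled receptors of fat cells, 6 fell and 1 rose, with a median log2 difference of −1.13. *Hcar2*, the nicotinic acid and ketone body receptor, fell from 133.9 ± 32.8 CPM to 31.3 ± 4.43 CPM (SD, n = 3 each), a log2 difference of −2.095 (edgeR adjusted p = 0.000751). *Ptger3*, a prostaglandin E receptor, fell by 1.55 (edgeR adjusted p = 0.00592), and *Hcar1*, the lactate receptor, by 1.32 (edgeR adjusted p = 0.00474). *Sucnr1*, the succinate receptor, which macrophages also express, rose from 44.4 ± 6.14 CPM to 154 ± 69.6 CPM (SD, n = 3 each), a log2 difference of 1.79 (edgeR adjusted p = 0.0095). With *Sucnr1* included, the summed TPM of the 8 genes overlapped between the genotypes, at 614 ± 69.3 and 481 ± 127 TPM (SD, n = 3 each; exact permutation p = 0.3). That result depends on the scale. The summed CPM did not overlap, at 517.0 to 669.9 CPM in L1L2-FF and 253.8 to 455.6 CPM in L1L2-AKO.

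Of 12 other stimulatory, Gs-coupled receptors, 11 were tested and 0 passed with edgeR, DESeq2 or limma-voom, while 2 were higher at an unadjusted p under 0.05. Their median log2 difference was 0.13. *Tshr*, the thyrotropin receptor, read 206 ± 17.3 and 170 ± 36.3 CPM (log2 difference −0.28, edgeR adjusted p = 0.316), and *Mc2r*, the corticotropin receptor, 50.3 ± 17.3 and 37.4 ± 13.9 CPM (log2 difference −0.43, edgeR adjusted p = 0.447; SD, n = 3 for each). With *Adrb1* and *Adrb3* added to these, *Adrb3* was the only one that fell.

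Of 13 tested G protein and adenylyl cyclase genes, 2 rose and 0 fell by edgeR, DESeq2 or limma-voom, with 1 lower at an unadjusted p under 0.05. *Adcy7* rose by a log2 difference of 1.18 (edgeR adjusted p = 0.0047) and *Adcy1* by 2.13 from a low level, 1.73 ± 1.13 to 7.59 ± 3.00 CPM (SD, n = 3 each; edgeR adjusted p = 0.0208). The *Adcy1* call was lost in 4 of 6 fits that dropped 1 library. *Gnai2* and *Gnai1*, the Gi genes highest in CPM, had log2 differences of 0.23 and −0.08 (edgeR adjusted p = 0.331 and 0.784). Of 13 genes for PKA subunits, its inhibitors and anchoring proteins, 3 rose and 2 fell. *Pkia*, a peptide inhibitor of the PKA catalytic subunit, rose from 16.0 ± 2.21 CPM to 72.9 ± 13.5 CPM (SD, n = 3 each), a log2 difference of 2.18 (edgeR adjusted p = 0.000382). *Akap12* rose by 1.05 and *Akap1*, which anchors PKA at mitochondria, fell by 0.74 on the log2 scale (edgeR adjusted p = 0.0382 and 0.0212). *Pkib*, a related inhibitor gene, passed as higher from at most 4 counts in an L1L2-FF library and 20 to 30 counts in L1L2-AKO. *Prkar2b*, the PKA regulatory subunit gene highest in CPM, was at 1052 ± 93.4 and 935 ± 159 CPM (SD, n = 3 each; edgeR adjusted p = 0.573).

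Of the phosphodiesterase genes other than *Pde3b*, 14 were tested, 3 fell and 1 rose. *Pde7b* fell by 1.61 on the log2 scale (19.8 ± 2.01 to 6.47 ± 0.812 CPM, SD, n = 3 each; edgeR adjusted p = 0.000807), *Pde4c* by 1.92 from 2.34 ± 1.02 CPM (edgeR adjusted p = 0.0224) and *Pde4a* by 0.84 (edgeR adjusted p = 0.00617). *Pde7a* rose by a log2 difference of 0.75 (edgeR adjusted p = 0.0144). In the insulin arm that leads to PDE3B, 2 of 9 genes fell and 0 rose by any of the 3 tools or at an unadjusted p under 0.05. These were *Akt2*, the main AKT gene of fat cells, from 424 ± 36.2 to 239 ± 30.8 CPM (SD, n = 3 each; log2 difference −0.83, edgeR adjusted p = 0.00777), and *Pik3cb*, a catalytic subunit of PI3-kinase (log2 difference −0.96, edgeR adjusted p = 0.0199).

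Of 12 receptor kinase, arrestin and RGS genes, 2 rose and 2 fell. *Grk3*, a kinase that desensitizes receptors, fell by 1.05 and *Arrb2*, beta-arrestin 2, rose by 0.66 on the log2 scale (edgeR adjusted p = 0.0202 and 0.0134). *Rgs16* rose by 1.28 and *Rgs5*, which is also a mural cell marker, fell by 1.22 (edgeR adjusted p = 0.0434 and 0.0188). Of the 7 genes of the natriuretic peptide arm, which raises cGMP, 1 rose: *Npr3*, the clearance receptor that removes the peptides, from 769 ± 125 to 3306 ± 617 CPM (SD, n = 3 each; log2 difference 2.104, edgeR adjusted p = 0.00093). The signalling receptor gene *Npr1* had a log2 difference of −0.41 (edgeR adjusted p = 0.227).

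Genes that handle catecholamines also differed. Of 6 tested, 2 rose and 1 fell. *Maoa*, which degrades catecholamines, rose by a log2 difference of 0.77 (edgeR adjusted p = 0.0162), and *Maob* fell by 1.74, from 59.0 ± 2.26 to 17.7 ± 3.16 CPM (SD, n = 3 each; edgeR adjusted p = 0.000479). *Th*, which makes them, was counted 0 times in every library. Of 9 genes known to respond to cAMP, 1 passed with edgeR, while DESeq2 called 1 higher and 1 lower and limma-voom called 0. The edgeR call was *Nr4a3*, with a log2 difference of 3.01, overlapping genotypes and a wide spread of 75.4 ± 54.7 CPM in L1L2-AKO (SD, n = 3; edgeR adjusted p = 0.0365). *Ucp1*, which cold induces through beta-adrenergic receptors, was at 227 ± 117 and 211 ± 48.0 CPM (SD, n = 3 each; log2 difference −0.10, edgeR adjusted p = 0.878).

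Other lipases did not share 1 direction. Of 14, 5 fell and 2 rose. *Ces1d* and *Ces1f*, carboxylesterases with triacylglycerol hydrolase activity, had log2 differences of −4.27 and −4.75 (edgeR adjusted p = 0.000128 and 0.000184), *Ces1d* going from 228 ± 50.3 to 11.8 ± 1.85 CPM (SD, n = 3 each). They belong to a cluster of related genes, and 1.1% and 0.9% of their 50-base stretches occur in transcripts of another gene. *Pnpla3*, a relative of *Pnpla2*, fell by 2.06 with overlapping genotypes (edgeR adjusted p = 0.0484), and *Plaat3*, an adipose phospholipase, fell by 0.89 (edgeR adjusted p = 0.00669). *Lpl*, lipoprotein lipase, which acts outside the cell and was the list's highest in CPM, read 11740 ± 2945 and 16840 ± 3057 CPM (SD, n = 3 each; log2 difference 0.52, edgeR adjusted p = 0.272). *Aadac* passed as higher, from at most 4 counts in an L1L2-FF library to between 16 and 32 in L1L2-AKO. In fits that dropped 1 library the *Pnpla3* call was lost in 4 of 6 and the *Aadac* call in 3 of 6.

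Of 14 droplet and fatty acid partners of the lipases, 3 fell and 0 rose with edgeR, DESeq2 or limma-voom, or at an unadjusted p under 0.05. *Acsl1*, which activates fatty acids to acyl-CoA, fell by 1.54 on the log2 scale, from 3167 ± 549 to 1090 ± 185 CPM (SD, n = 3 each; edgeR adjusted p = 0.00294). *Cidea*, a droplet protein, fell by 1.27 and *Aqp7*, the glycerol channel of fat cells, by 0.55 (edgeR adjusted p = 0.0217 and 0.0309). The *Aqp7* call was lost in 5 of 6 fits that dropped 1 library, and the *Cidea* call in 2 of 6. *Plin1* read 1518, 1241 and 1718 CPM in L1L2-FF and 1077, 726 and 1041 CPM in L1L2-AKO, a log2 difference of −0.65 (standard error 0.210, edgeR adjusted p = 0.07). *Fabp4*, the fatty acid carrier, had a log2 difference of −0.30 (edgeR adjusted p = 0.389).

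Of 10 transcription factor genes known at lipase genes, 2 fell and 0 rose with edgeR, DESeq2 or limma-voom, while 1 was higher at an unadjusted p under 0.05. *Pparg*, the nuclear receptor that drives *Pnpla2* and much of the adipocyte program, read 375 ± 11.4 and 250 ± 12.6 CPM (SD, n = 3 each), a fall of 0.59 on the log2 scale (edgeR adjusted p = 0.0122). *Ppara* fell by 0.84 (edgeR adjusted p = 0.017), and *Cebpa* had a log2 difference of −0.37 (edgeR adjusted p = 0.211).

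**Figure D5:**
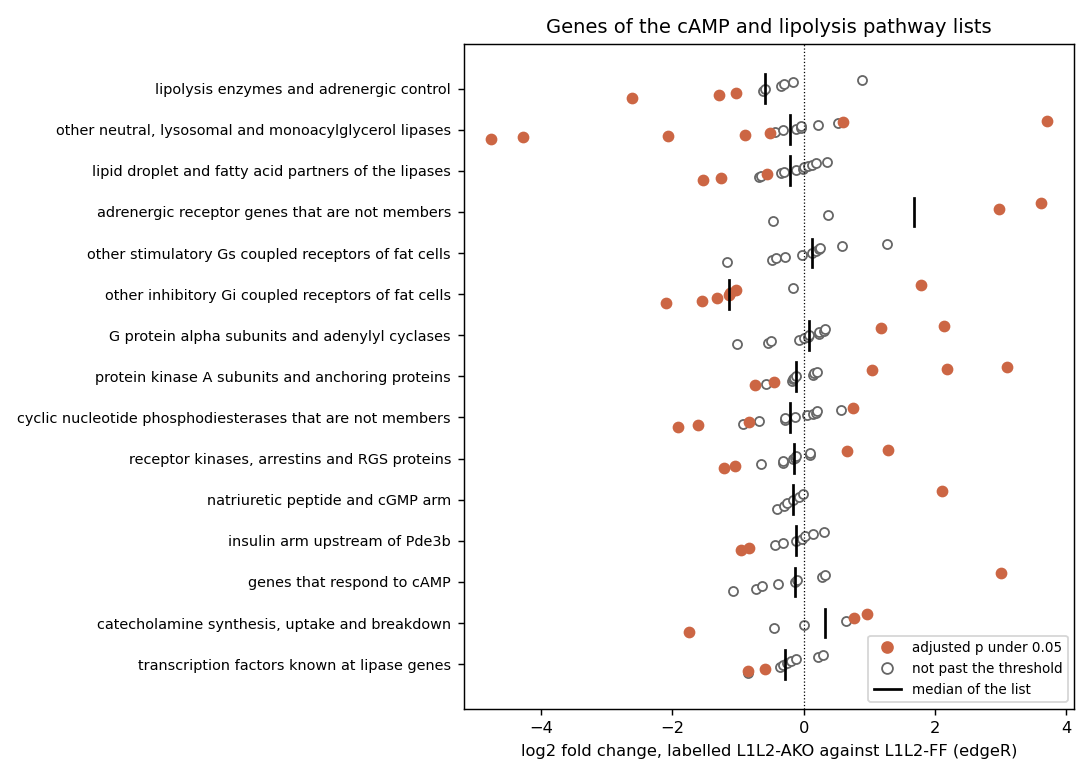
Log2 fold change (horizontal axis, libraries labelled L1L2-AKO against L1L2-FF, edgeR) of each tested gene in the 9 genes described and in 14 lists around them, filled where the adjusted p was under 0.05, with a black bar at the median of each row. The other Gi-coupled receptors have a median of −1.13, beside −0.58 for the 9 genes.

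Markers of some cell types also differed between the genotypes. Of 11 mature adipocyte markers 9 fell and 0 rose with edgeR, DESeq2 or limma-voom, with a median log2 difference of −1.67, and their summed level was 24570 to 32990 CPM in L1L2-FF and 9010 to 12630 CPM in L1L2-AKO. *Car3* and *Cfd*, the highest of them, fell by 1.34 and 4.14 on the log2 scale (edgeR adjusted p = 0.0202 and 0.000399). The marker list was chosen with earlier results of these data known, and its median describes those 11 genes only. Among the 14 droplet and fatty acid partners above, 3 fell, 11 did not pass and the median was −0.21. *Fabp4* and *Cav1*, the highest of those in CPM, had log2 differences of −0.30 and −0.34 (edgeR adjusted p = 0.389 and 0.352). None of the adipocyte markers was at 0 in all 6 libraries. The summed level of these markers was at least 9010 CPM in each library, so their transcripts were present in every one. That sum does not measure the share of adipocytes in a library. The median log2 difference of the 9 genes was −0.58, and the differences of *Adrb3* and *Pde3b* were −2.62 and −1.29. Of 12 macrophage markers 11 rose, from a summed 272 to 532 CPM in L1L2-FF to between 979 and 1091 CPM in L1L2-AKO. Of 8 Schwann cell and nerve markers 4 fell and 0 rose with any of the 3 tools, and their sum was 456 to 1301 CPM in L1L2-FF and 153 to 405 CPM in L1L2-AKO. None of the macrophage or Schwann cell markers was at 0 in every library. Of the 7 tested brown and beige adipocyte markers 2 fell, and *Zic1*, a marker of classical brown fat, was at 0 in all 6 libraries. Among 8 mural markers 1 rose and 2 fell, and among 8 progenitor markers 1 fell. The endothelial, lymphoid, neutrophil and mast cell, muscle, red cell and epithelial lists had 0 edgeR calls. At an unadjusted p under 0.05 they had, in that order, 0, 2, 0, 0, 0 and 0 genes higher and 1, 0, 1, 3, 0 and 2 lower. DESeq2 called 1 lymphoid gene higher, and 3 muscle and 1 epithelial gene lower, and limma-voom called 1 muscle gene lower. The part of these cell types in the differences of the 9 genes was not tested.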

How the data were processed

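RNA-seq was compared between 3 L1L2-FF and 3 L1L2-AKO libraries of P7 scWAT adipocytes, grouped by the submitters' labels. Reads were paired ends from a BGISEQ-500. Per the submitters' processing notes and the methods, the authors aligned them to mm10 with HISAT2 2.1.0 and analysed them with StringTie 1.3.5, and the deposited table holds whole-number counts for each gene symbol that were not normalized. The counting program, its annotation and its strand setting are not given in the sources used here, so counts of overlapping genes on opposite strands could not be separated. No column belonged to another sample (0 of them).

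The table was fitted whole with edgeR 4.0.16 in R 4.3.3: filterByExpr (minimum count 10, minimum total count 15; 15674 genes kept, 21710 left out), TMM, and the two-sided quasi-likelihood test, adjusted by Benjamini-Hochberg, at a threshold of 0.05. The common biological coefficient of variation was 0.206. Standard errors are |log2 fold change| over the root of the F statistic. Libraries of a genotype differed beyond sampling noise, and *Adra2a*, with 27 to 77 counts a library, had the fewest counts of the 9 genes. TPM used the exon bases of GENCODE M21. Ratios between genes were tested by exact permutation with SciPy 1.17.1, with a prior count of 0.5 as an alternative. The fit was tested on simulated data.

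Alternatives were DESeq2 size factors in edgeR, upper-quartile normalization, library size alone, library sizes without the 20 most abundant genes, DESeq2 1.42.0, limma-voom (limma 3.58.1), no filter, at least 10 counts in every library, replicate number as a block, and each library left out. The 9 genes and all lists were chosen with earlier results of these data known. Named besides the 9 were, of each pathway list, up to 4 called genes by size of change and the 2 highest in CPM, at most 2 genes of a marker list, and the 3 genes nearest in pattern to *Lipe* and to *Adrb3*. *Adra2b*, *Adra2c*, *Plin1*, *Th*, *Zic1* and the overlapping genes fall outside that rule. *Plin1* and the alpha-2 genes complete a ratio or a family, and *Th* and *Zic1* were named after their values were seen. Some genes of these lists are not reported here.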

Additional observations from a re-analysis of the deposited data

How the results depend on the processing

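The falls of *Adrb3* and *Pde3b* passed the threshold in all 15 alternative fits, and no scaling moved the median of all genes by more than 0.035 (log2). With DESeq2 5 of the 9 genes were lower and 1 higher, since *Pnpla2* (−0.61, adjusted p = 0.0433), *Lipe* (−0.57, 0.0211) and *Adrb1* (0.90, 0.0479) also passed. *Lipe* further passed with library size alone (−0.61, edgeR adjusted p = 0.0328). *Adra2a* no longer passed with library size alone (−1.05, 0.0624), limma-voom (−1.0, 0.0579), no filter (−1.02, 0.0622) or the replicate block (−1.01, 0.0671). The cause of these differences was not tested. Replicate numbers were not taken as pairs. Same-numbered libraries correlated at 0.188, 0.255 and −0.054 in their deviations from the group means, and libraries of unlike number at −0.324 to 0.211. So few values cannot settle whether the libraries were paired. With the replicate block *Adrb1* passed (0.91, edgeR adjusted p = 0.0281), so that 1 of the 9 genes was higher, and 2514 genes passed in all, beside 2580. Upper-quartile scaling gave 1347 higher and 1297 lower genes, beside 1455 and 1125.

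Leaving out single libraries, between 1281 and 2845 genes passed (777 to 1552 higher, 467 to 1293 lower), the fewest without L1L2-AKO replicate 2, L1L2-FF replicate 1 (1290) or L1L2-AKO replicate 3 (1374). Of the pathway list genes 15 to 30 were lower and 8 to 17 higher, beside 26 and 17. The log2 differences ran from −0.76 to −0.49 for *Lipe* (−0.68, adjusted p = 0.0478, without L1L2-FF replicate 2), −0.37 to 0.06 for *Abhd5*, −1.19 to −0.89 for *Adra2a* and 0.55 to 0.78 for *Lats2*, which lost its call in 4 of 6 fits, and the ratio differences from −0.11 to 0.22 (−0.02 without L1L2-FF replicate 2) for *Lipe* to *Pnpla2* and from −0.24 to 0.02 (0.01 without L1L2-AKO replicate 3) for *Plin1* to *Lipe*. Differences near 0 changed sign for *Pde4b* (−0.25 to 0.03), *Ucp1* (−0.35 to 0.40), *Cd79a* (−0.04 to 0.75), *Hba-a1* (−0.38 to 0.17) and *Hbb-bs* (−0.38 to 0.18). Over 76 other named genes, 1025 of 1137 refits kept direction and call, 82 lost the call, 23 gained one and 7 changed sign. The longest transcript's length in place of all exon bases kept 5 of 9 TPM ranks in L1L2-FF. Depth limits *Adra2a*, with 27 to 77 counts a library.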

Other observations

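Over 10067 genes whose average log2 CPM was 3 or more, those nearest in pattern to *Lipe* across the 6 libraries were *Tmem53*, *Rad50* and *Ltbp3*, at root-mean-square differences of 0.0309, 0.0787 and 0.0818 in centred log2 CPM. *Tmem53* read 16.4, 12.4 and 16.1 CPM in L1L2-FF and 9.23, 8.84 and 12.5 CPM in L1L2-AKO, with its lowest L1L2-FF value in replicate 2 and its highest L1L2-AKO value in replicate 3, as for *Lipe*. Those nearest to *Adrb3* were *Adig*, *Slc16a12* and *Negr1*, at 0.178, 0.197 and 0.218. *Adig*, the gene of adipogenin, a small adipocyte protein, read 113.9, 114.3 and 121.5 CPM in L1L2-FF and 29.3, 19.5 and 22.6 CPM in L1L2-AKO. *Negr1* read 25.3, 24.2 and 24.7 CPM against 5.76, 3.93 and 5.37 CPM. The 6 libraries share their genotype split, so closeness of this kind is a description over 6 points.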
